A study of Sus scrofa domesticus with 4 samples.

Results

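Transcripts of 6 genes of the hypoxia response and of glycolysis were followed in explants of pig myometrium (uterine smooth muscle) after exposure to orexin A (OXA). DDIT4, VEGFA, ALDOC, GAPDH, LDHA and HIF1A are represented by 12 of the 43603 non-control probes of the array, or 6 of 3029 genes that RefSeq transcript accessions name. A probe belongs here if its accession is a RefSeq transcript of one of these genes. The genes themselves were chosen by their log2 ratios of OXA over non-treated tissue on these same arrays, and by their place in the pathway, so those ratios are given below as a description and are not tested as evidence.

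Myometrium came from 4 mature gilts (Large White x Polish Landrace, aged 7 to 8 months) on days 15 to 16 of gestation, the time of early implantation. The treated explants were kept for 24 h with OXA after 2 h of preincubation, and the non-treated explants were kept without it for the same time. The sample labels give the OXA concentration as 10 nM and the series' design text gives 10 µM, and the files do not settle which was used. All explants, weighing about 100 mg, were cultured in serum-supplemented medium under 95% O2 and 5% CO2, so treated and non-treated tissue shared the same high oxygen. Each of 4 Agilent dual-colour arrays compared treated with non-treated tissue, each labelled with its own dye. The sample labels put OXA in Cy5 for arrays 1 and 3, and in Cy3 for arrays 2 and 4. Whether an array paired tissue of a single animal, and whether duplicate cultures were pooled, is not stated, so the spread between arrays may be partly technical.

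Hypoxia-inducible factor 1 is a transcription factor made of HIF1A and ARNT. In oxygenated cells HIF1A protein is hydroxylated by prolyl hydroxylases, bound by VHL and degraded, so its activity is set mainly at the level of the protein and less at that of its transcript. When oxygen falls the protein accumulates and induces genes of glucose uptake and glycolysis, of blood vessel growth (VEGFA) and of growth restraint (DDIT4). Several of these targets also answer to other signals, such as glucocorticoids and amino acid or endoplasmic reticulum stress in the case of DDIT4. In cultured cells that carry an orexin receptor, orexin has been reported to raise the activity of hypoxia-inducible factor 1.

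The OXA and the non-treated channel of each of the 4 arrays measured all 12 probes well above background. The files give signals that were background-subtracted and dye-normalized within each array, called processed signals here, and a log2 ratio of OXA over non-treated per array, where 0 means equal signal and 1 means a doubling. Processed signals are in arbitrary units and were not scaled between arrays; the median over tested probes was 373 to 477 in the OXA channels and 363 to 492 in the non-treated channels. Probes bind with different strength, so the signal of one probe is not set against that of another. In whole tissue, more RNA per cell and more cells of a type cannot be told apart. Markers of smooth muscle were detected: the 7 of 12 listed genes with a named probe (ACTA2, CNN1, DES, SMTN, MYLK, MYL9 and TPM2) exceeded background in every channel of every array. So did 5 of 5 tested endothelial, 7 of 10 macrophage, 3 of 4 fibroblast and 2 of 6 epithelial markers. Detection alone thus does not single out smooth muscle.

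The arrays disagreed with each other over many probes, and this touches every mean given here. Across tested probes, the log2 ratios of arrays 2 and 4, both with OXA in Cy3, correlated at r = -0.38. Arrays 1 and 2 correlated at r = -0.59 and arrays 1 and 4 at r = 0.62. The labelling protocol, unlike the sample labels, words the dyes as OXA in Cy5 throughout. Values without array 2, with its direction turned and under that wording therefore follow those given as labelled.

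DDIT4 encodes a stress-induced protein that restrains mTORC1, the kinase complex that drives protein synthesis and cell growth. It gave a higher signal in the OXA channel on every array. With its brightest probe (A_72_P230427, transcript NM_001243452), the processed signal on arrays 1 to 4 was 15269, 34479, 36699 and 16328 with OXA, against 7774, 14126, 20672 and 10369 without treatment. Arrays 2 and 3 were high and arrays 1 and 4 low in both channels, so the groups overlapped: the OXA signals of arrays 1 and 4 lay below the non-treated signal of array 3. Within an array the log2 ratios were 0.97, 1.29, 0.83 and 0.66, with a mean of 0.94 ± 0.27 (SD, n = 4), or 1.91-fold.

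The 4 probes of DDIT4 all had positive log2 ratios on all 4 arrays, and their means ran from 0.78 to 1.11. The probe with the next lower signal (A_72_P577733) followed the brightest closely, with 1.02, 1.23, 0.86 and 0.58. The third by signal (A_72_P489452) had 0.71, 0.90, 0.85 and 0.68, an SD of 0.11 that was larger than the SD of only 1.2% of tested probes. The dimmest probe (A_72_P538933) departed from the rest: it had 1.29, 0.39, 1.07 and 1.68, so that array 2 was its lowest array and array 4 its highest. All the brighter probes had array 2 highest and array 4 lowest. Probes of DDIT4 thus differed by up to 1.10 on a single array (array 4), against a median of 0.69 for the widest array of the 983 named genes with several tested probes. The spread of 0.32 between the means of these probes was wider than in 75.9% of those genes, and the order of the arrays also depended on the probe. Neither comparison was matched for the number of probes per gene, and such a spread can only widen as probes are added.

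**Figure D1:**
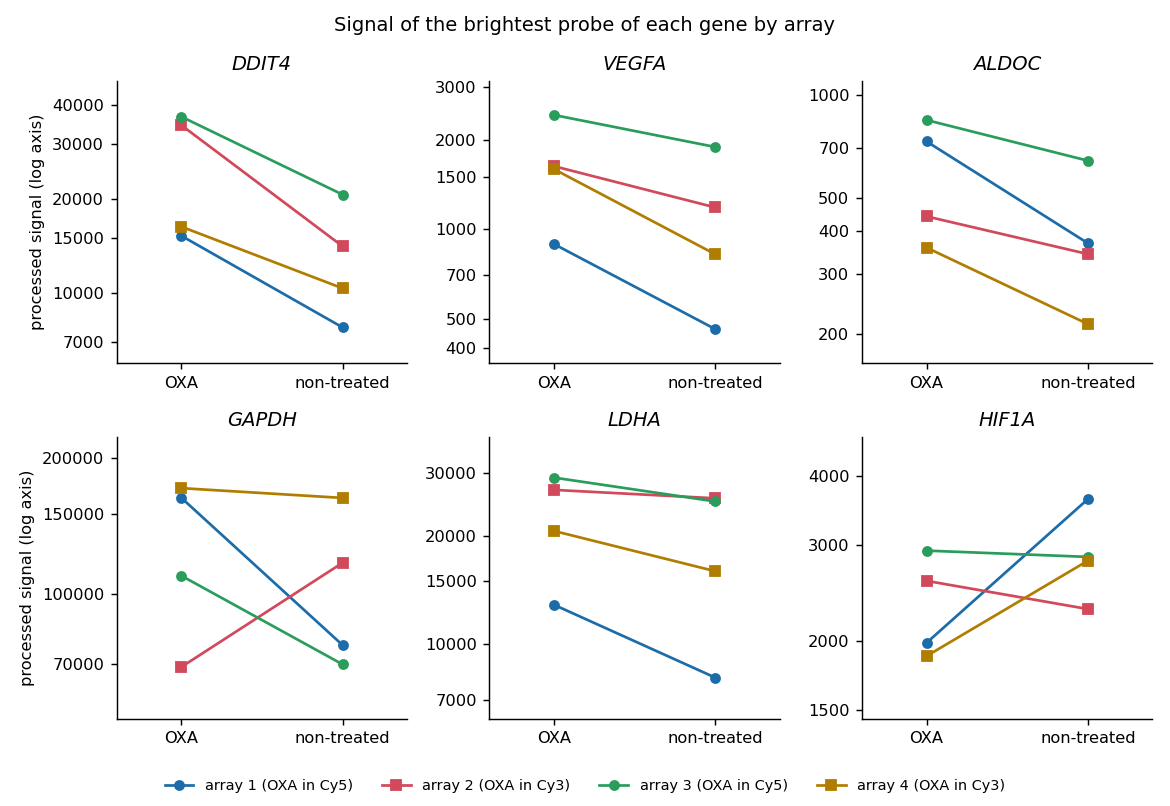
Processed signal (log axis, arbitrary units) of the brightest probe of each gene in the OXA channel and in the non-treated channel, with a line joining the channels of an array. All 4 lines fall from OXA to non-treated for DDIT4, VEGFA, ALDOC and LDHA, whereas lines cross for GAPDH and HIF1A; for DDIT4, VEGFA and LDHA arrays 1 and 4 lie below arrays 2 and 3 in both channels.

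VEGFA encodes the secreted growth factor that drives the sprouting and permeability of blood vessels. Its brighter probe (A_72_P414353, NM_214084) gave 892, 1628, 2418 and 1592 on arrays 1 to 4 with OXA, against 462, 1184, 1888 and 824 without treatment. The OXA channel was higher on each array, but the signals of the groups overlapped, with array 1 low and array 3 high in both. The log2 ratios were 0.95, 0.46, 0.36 and 0.95, averaging 0.68 ± 0.31 (SD, n = 4), or 1.60-fold. The dimmer probe (A_72_P441494) gave 262, 484, 839 and 415 with OXA, against 157, 454, 790 and 232 without treatment. Its log2 ratios of 0.74, 0.09, 0.09 and 0.84 (mean 0.44 ± 0.41, SD, n = 4) had the same arrangement, with arrays 1 and 4 high and arrays 2 and 3 low. On arrays 2 and 3 this probe was close to equal signal.

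ALDOC encodes aldolase C, an isoform of the enzyme that cleaves fructose 1,6-bisphosphate in glycolysis. Its single probe (A_72_P293754, NM_001243928) gave 729, 441, 843 and 357 with OXA, against 368, 342, 641 and 214 without treatment. OXA was higher on each array, while the non-treated signal of array 3 exceeded the OXA signals of arrays 2 and 4. The log2 ratios were 0.99, 0.37, 0.39 and 0.74, with a mean of 0.62 ± 0.30 (SD, n = 4), or 1.54-fold. As for VEGFA, arrays 1 and 4 had the higher ratios.

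LDHA encodes the lactate dehydrogenase subunit that favours the conversion of pyruvate to lactate. Its probe (A_72_P086171, NM_001172363) gave 12877, 26853, 29051 and 20653 with OXA, against 8080, 25449, 24937 and 15961 without treatment. The ratios were positive on all arrays but small on array 2, at 0.67, 0.08, 0.22 and 0.37, and averaged 0.34 ± 0.25 (SD, n = 4), or 1.26-fold. The non-treated signal of array 1 was low, at less than every other value of this probe.

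LDHB, which encodes the other main lactate dehydrogenase subunit and was singled out after its values were seen, had a mean of -0.11 ± 0.24 with its brightest probe (SD, n = 4). The medians of its 12 probes on arrays 1 to 4 were -0.54, -0.01, -0.06 and -0.65. LDHA lay above all 12 on arrays 1, 3 and 4, and above 7 of them on array 2. The array with the highest LDHA ratio, array 1, was thus among those with the lowest LDHB ratios.

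GAPDH, a glycolytic enzyme whose transcript is widely used as a reference in expression measurements, did not hold one direction. Its brighter probe (A_72_P756170, NM_001206359) gave 163197, 68973, 109784 and 171380 with OXA, against 77100, 117254, 69912 and 163066 without treatment. The signals overlapped fully: OXA was higher on arrays 1 and 3, lower on array 2 and nearly equal on array 4. The log2 ratios were 1.08, -0.77, 0.65 and 0.07, a mean of 0.26 ± 0.80 (SD, n = 4). The dimmer probe (A_72_P321038) gave 80076, 55959, 66745 and 164386 with OXA, against 68511, 73205, 64512 and 79676 without treatment. Its ratios were 0.23, -0.39, 0.05 and 1.04 (mean 0.23 ± 0.60, SD, n = 4). The means of both probes agree within 0.03, yet on array 4 they differed by 0.97 and on array 1 by 0.86.

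The brighter GAPDH probe also had the largest mean difference between dyes among the 12 probes. Its Cy5 signal exceeded Cy3 on 3 of 4 arrays, as did that of the dimmer probe; 32.4% of tested probes had this on at least 3 arrays. The mean log2 ratio of Cy5 over Cy3 of the brighter probe was 0.61 ± 0.29 (SE of the fit). This value is formed from the same 4 ratios that chose the genes, so it is a description too. limma called 0% of 19437 tested probes for dye, and 0 of the 12. For the dimmer GAPDH probe the mean was -0.10, and for the other 10 probes it lay between -0.12 and 0.11. Among arrays with OXA in Cy5 the brighter GAPDH probe averaged 0.87, and among those with OXA in Cy3 it averaged -0.35. DDIT4, by contrast, averaged 0.90 and 0.97 with its brightest probe, and VEGFA 0.65 and 0.70, in these same pairs of arrays.

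The mean log2 ratios of both HIF1A probes were below 0, unlike those of the other genes. The brighter probe (A_72_P213487, NM_001123124) gave 1988, 2579, 2928 and 1881 with OXA, against 3634, 2291, 2852 and 2807 without treatment. OXA was lower on arrays 1 and 4 and slightly higher on arrays 2 and 3, with log2 ratios of -0.87, 0.17, 0.04 and -0.58 (mean -0.31 ± 0.50, SD, n = 4). The dimmer probe (A_72_P585741) gave 279, 261, 333 and 233 with OXA, against 403, 302, 371 and 233 without treatment, and its ratios of -0.53, -0.21, -0.15 and 0.005 averaged -0.22 ± 0.23. The arrays with the lowest ratios of the brighter HIF1A probe, 1 and 4, were those with the highest ratios of VEGFA and ALDOC.

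**Figure D2:**
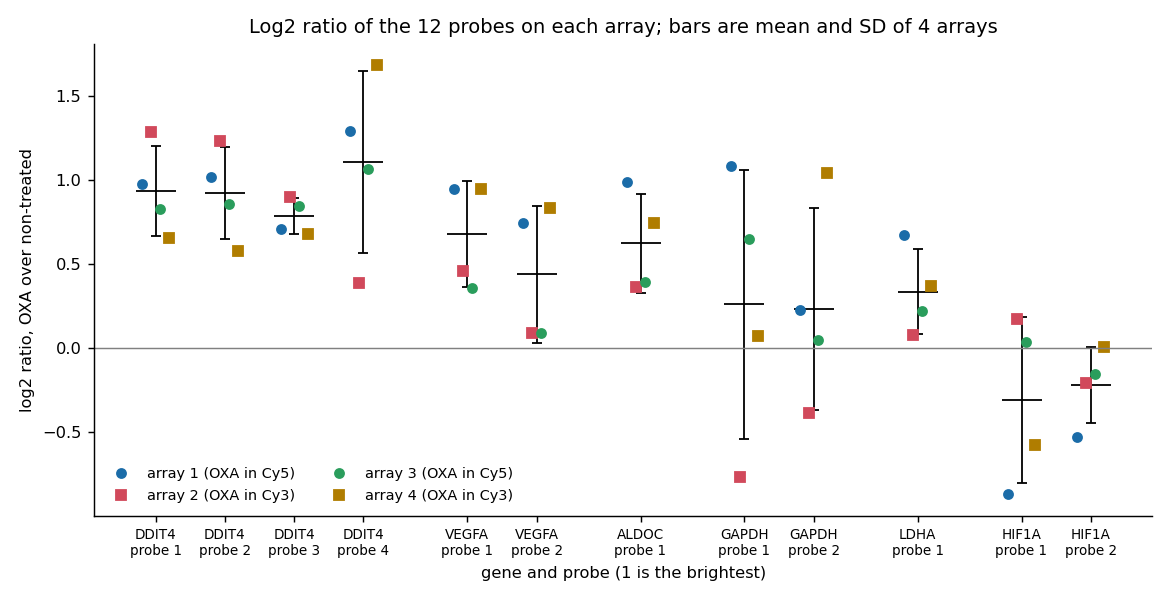
Log2 ratio of OXA over non-treated on each array for the 12 probes, grouped by gene, with probe 1 the brightest; circles mark arrays with OXA in Cy5, squares those with OXA in Cy3, and black bars the mean and SD of 4 arrays. All points of DDIT4, VEGFA, ALDOC and LDHA lie above 0, GAPDH spans -0.77 to 1.08, and array 1 is the lowest point of both HIF1A probes.

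A model was fitted over all 19437 tested probes with terms for OXA and for dye. limma called 0% of the probes for OXA (lowest adjusted p = 0.998), with 233 (1.20%) at an unadjusted p under 0.05, and 0 of the 12 probes were among the calls. Analysed by separate channels, 0 probes were called, and 637 had an unadjusted p under 0.05. Without array 2 the fit called 1108 probes, 264 higher and 844 lower with OXA. With 1 residual degree of freedom, that fit gave every probe the same variance, so its count is not relied on. Of the 12 probes, 8 had a log2 ratio above 0 on all 4 arrays and 0 had one below 0 on all 4. Over all tested probes these shares were 3.96% above and 3.76% below; nothing is read from the difference, since the genes were chosen with these ratios known. In the order of mean log2 ratios over tested probes, the brightest probe of DDIT4 lay above 99.6% of probes, VEGFA above 97.8%, ALDOC above 97.0%, LDHA above 88.7%, GAPDH above 83.7% and HIF1A above 17.4%. Between neighbours in this order the means were no further apart than the larger SD of the pair.

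On the brightest probe of each of 1985 named genes, the median ratio was 0.25, -0.22, 0.02 and 0.29 on arrays 1 to 4, although it was within 0.05 of 0 over all tested probes. Relative to these medians of named genes, DDIT4 had 0.72, 1.51, 0.81 and 0.36, VEGFA 0.70, 0.68, 0.34 and 0.66, ALDOC 0.74, 0.59, 0.38 and 0.45, and LDHA 0.42, 0.30, 0.20 and 0.08. On this scale the SD between arrays was smaller for VEGFA (0.17), ALDOC (0.16) and LDHA (0.15), and larger for DDIT4, at 0.48 in place of 0.27. GAPDH had 0.83, -0.54, 0.63 and -0.22 (SD 0.66), and HIF1A had -1.12, 0.40, 0.02 and -0.87, with an SD of 0.72 in place of 0.50.

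Under the wording of the labelling protocol the mean of DDIT4 was -0.04 ± 1.11 and that of VEGFA -0.03 ± 0.84 (SD, n = 4), because ratios that are all positive as labelled then alternate in sign. ALDOC had 0.07, LDHA 0.11, GAPDH 0.61 and HIF1A -0.11. The sign turned with the probe for GAPDH, whose dimmer probe had -0.10, and for DDIT4, whose probes had -0.04 to 0.07. If instead the direction of array 2 alone is turned, the values are OXA estimates of the fit with the dye term. They are not plain means, since array 4, alone in its orientation, then weighs as much as the other arrays together. These estimates were 0.41 for DDIT4, 0.62 for VEGFA, 0.54 for ALDOC, 0.45 for GAPDH, 0.32 for LDHA and -0.46 for HIF1A, all with the brightest probe. Over the probes of a gene this setting gave 0.40 to 1.17 for DDIT4 and -0.46 to -0.08 for HIF1A. Without array 2 the OXA estimates of the fit were 0.78, 0.80, 0.72, 0.47, 0.41 and -0.50 in the same order of genes. These are not plain means either, since array 4 again weighs as much as the other arrays together.

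**Figure D3:**
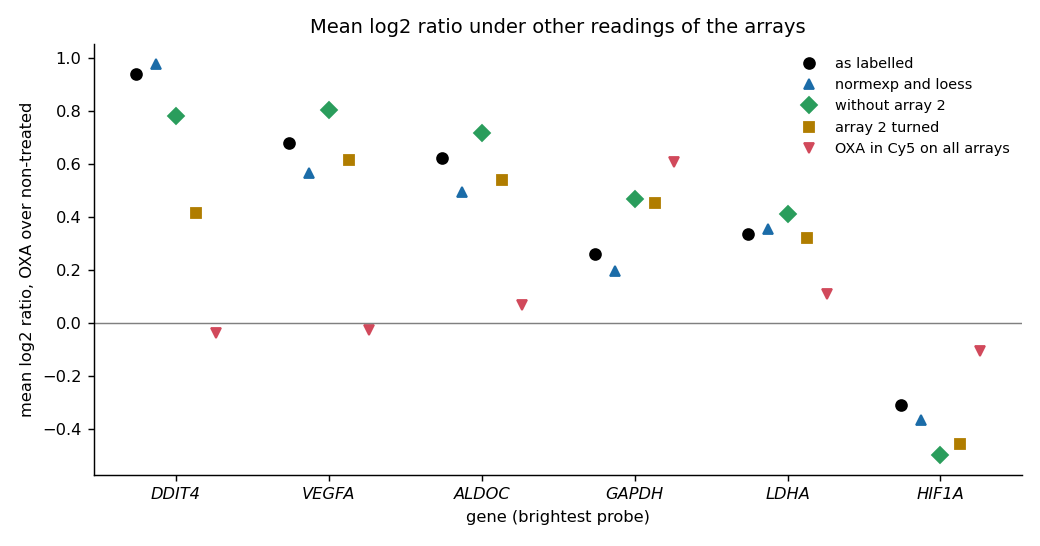
Estimated log2 ratio of OXA over non-treated (brightest probe of each gene) in 5 settings. They are dyes as labelled, normexp background correction with loess, array 2 left out, array 2 turned, and Cy5 read as OXA on every array. With array 2 left out or turned, the value is the estimate of the fit with the dye term and not a plain mean. HIF1A stays below 0 in all 5 settings shown and ALDOC, GAPDH and LDHA above it, while DDIT4 and VEGFA drop to -0.04 and -0.03 in the last.

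The level of several of these transcripts differed between arrays more than between treatments. The non-treated signal of the brightest probe of DDIT4 differed 2.66-fold between its highest and lowest array, that of VEGFA 4.08-fold, LDHA 3.15-fold and ALDOC 3.00-fold, against a median of 2.03-fold over tested probes. In the OXA channel the spans were 2.40-fold for DDIT4, 2.71-fold for VEGFA, 2.26-fold for LDHA and 2.36-fold for ALDOC, against a median of 2.37-fold. HIF1A was even, with 1.56-fold in the OXA channel and 1.59-fold in the non-treated channel.

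The arrays also took the same order for DDIT4 and VEGFA. From low to high this was array 1, 4, 2 and 3, in the OXA channel and in the non-treated channel alike, for the 3 brightest probes of DDIT4 and both probes of VEGFA, or 5 of the 12 probes. That order in both channels was found for 24 (0.12%) of tested probes. LDHA had it in the OXA channel, and in the non-treated channel its order was 1, 4, 3 and 2. This arrangement was noticed in the data and not tested, and probes of one gene share their transcript.

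The pattern most like that of DDIT4 was sought among 1984 other named genes by the Euclidean distance between the 4 array ratios. The nearest were ITGA2, an integrin subunit that binds collagen (0.66, 1.08, 0.38 and 0.59; distance 0.59), EMP1 (0.88, 0.81, 0.37 and 0.66; 0.67) and LOC404703 (0.60, 0.84, 0.49 and 0.83; 0.70). DDX46, an RNA helicase of splicing (distance 0.71), and ADAM17, a protease that sheds membrane proteins (0.88), followed. All of these were positive on the 4 arrays with their brightest probe, though the 3 probes of ADAM17 averaged -0.08 to 0.61. VEGFA ranked 12th and ALDOC 14th by this distance, LDHA 75th, GAPDH 993rd and HIF1A 1600th. The median distance was 2.14. The ranks of these genes come from the same ratios that chose them, so nothing is read from the ranks.

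GAPDH had a different neighbourhood. Nearest to its brighter probe were NPC1, a cholesterol transporter of the lysosome (0.94, -0.70, 0.63 and 0.17; distance 0.19), CXCL14, a chemokine (0.32), CRHR1, a receptor for corticotropin-releasing hormone (0.33), RTN1 (0.34) and RPS18, a protein of the small ribosomal subunit (0.34). For each of them array 2 was negative and array 1 the highest.

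Other genes induced by hypoxia were taken from a list of 28, of which 15 had a named probe and 12 were tested. limma called 0 of the 12. The mean was above 0 for 9 and below 0 for 3, and the median of the gene means was 0.07, against 0.08 over all 1985 named genes. Of the 12, 2 were positive on all 4 arrays and 0 were negative on all 4, against 5.69% and 2.97% of named genes. These were ADM, which encodes the vasodilator adrenomedullin (0.53, 0.55, 0.76 and 0.20), and IGFBP3, which binds insulin-like growth factors (0.84, 0.13, 0.05 and 0.88). Without array 2, an alternative added after the data were seen, 4 of the 12 were positive on the remaining arrays, against 29.6% of named genes.

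The remaining glycolysis genes did not hold one sign. Of 27 listed, 12 had a named probe and 9 were tested, with 7 means above 0 and 2 below. Their median was 0.17, and the array medians were 0.01, -0.18, 0.17 and 0.62. limma called 0 of the 9, and 0 were positive on all 4 arrays. Without array 2, 4 of the 9 were positive throughout, against the same 29.6% of named genes, and so were 3 of 7 reference genes and 7 of 10 macrophage markers. At the entry of the pathway, the hexokinases HK1 and HK2 averaged 0.20 ± 0.31 and 0.36 ± 0.70 (SD, n = 4). The phosphofructokinase PFKM averaged -0.02 ± 0.68, and GPI, the isomerase before it, 0.02 ± 0.14. Past the aldolase step, TPI1 averaged 0.17 ± 0.42, PGK1, the phosphoglycerate kinase and the brightest of these genes, 0.21 ± 0.33, and the enolase ENO3 0.11 ± 1.06. SLC16A1, which carries lactate across the membrane, averaged 0.26 ± 0.72. ALDOC and LDHA, which were positive on all 4 arrays, were chosen by these ratios, so nothing is read from their difference from the rest of the pathway.

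**Figure D4:**
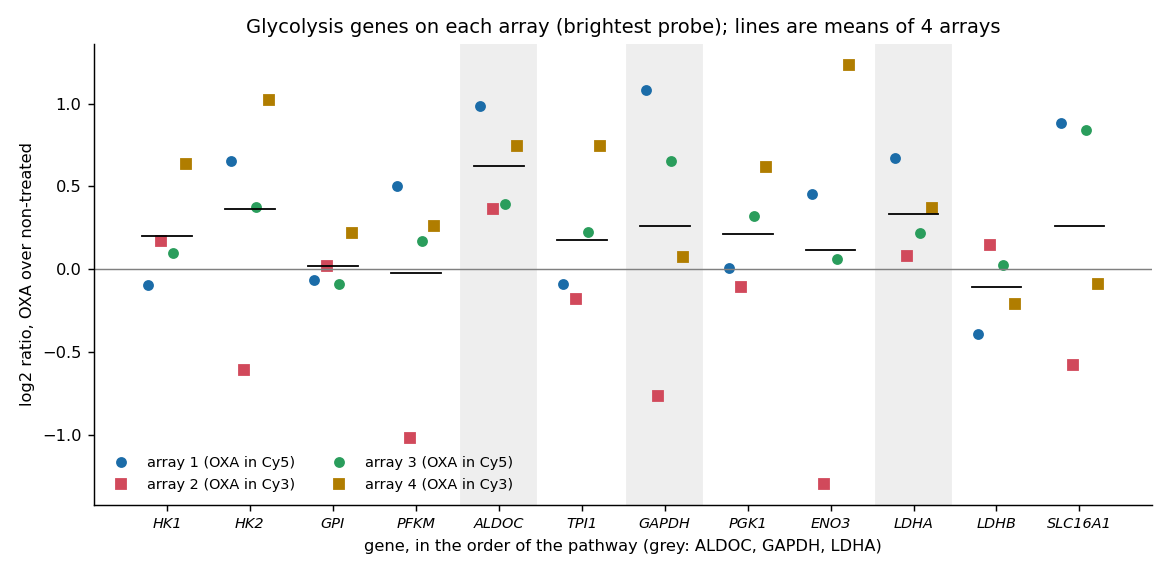
Log2 ratio of OXA over non-treated on each array for genes of glycolysis in the order of the pathway, with LDHA, LDHB and the lactate carrier SLC16A1 at the end; circles mark arrays with OXA in Cy5, squares those with OXA in Cy3, and black lines the mean of 4 arrays. On a grey ground, all points of ALDOC and LDHA lie above 0, while GAPDH, like HK2, PFKM, TPI1, PGK1, ENO3 and SLC16A1, has array 2 below 0.

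Of the pathway around HIF1A, 4 of 17 other listed genes had a named probe and 3 were tested. EPAS1, the alternative oxygen-regulated subunit, had 0.45, 0.24, -0.46 and 0.29. The chaperones HSP90AA1, which can stabilise HIF1A protein, and HSP90AB1 averaged 0.24 ± 0.72 and -0.07 ± 0.37 (SD, n = 4). Their direction turned with the probe: the 6 probes of HSP90AA1 averaged -0.38 to 0.24 and the 6 of HSP90AB1 -0.26 to 0.60. limma called 0 of the 3, and 0 held one sign on all arrays. Of the VEGF and angiopoietin family, 2 of 12 listed genes had a named probe, and ANGPT2, a ligand that loosens vessel walls, had -0.33, 0.96, 0.36 and -0.23. Of the genes of mTORC1 and its regulators, the complex that DDIT4 restrains, 2 of 19 were tested, with means of -0.14 ± 0.81 for the kinase AKT1 and -0.23 ± 0.81 for PRKAA2, a catalytic subunit of the energy-sensing kinase AMPK. limma called 0 of these 3.

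DDIT4 is also a target of glucocorticoids and of stress signalling. Of 10 listed genes, made up of glucocorticoid targets and the receptor NR3C1, 3 were tested and limma called 0. NFKBIA, an inhibitor of NF-kappaB, had 0.28, 0.96, 0.05 and 0.61, SGK1, a serum- and glucocorticoid-induced kinase, 0.63, -0.02, 0.21 and 0.55, and the receptor NR3C1 averaged 0.06 ± 0.23 (SD, n = 4). Of 10 genes of the integrated stress response, 2 were tested and limma called 0. The transcription factor DDIT3 had 1.93, -0.46, 0.67 and 1.21, and ATF4, which induces it, had 0.44, -0.04, -0.85 and 1.06.

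Since GAPDH is used as a reference, 12 other reference genes were listed, of which 7 were tested. limma called 0 of them, and 0 held one sign on all 4 arrays. PPIA averaged 0.26 ± 0.22, B2M 0.39 ± 0.57, RPLP0, the brightest, 0.31 ± 0.58 and HPRT1 -0.13 ± 0.60 (SD, n = 4). TOP2B varied most, with -0.28 ± 1.11, and GUSB least, with -0.06 ± 0.16. The SD of the brighter GAPDH probe, 0.80, was exceeded within these 7 by TOP2B alone, and 6 of the 7, like both GAPDH probes, had their lowest ratio on array 2, TOP2B excepted.

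Markers of other cell types differed between the channels as well. Of 14 macrophage markers, 10 were tested, and 9, 1, 9 and 8 of them were higher with OXA on arrays 1 to 4. Their summed signal was 7410, 1734, 4861 and 11771 with OXA, against 4728, 2899, 1897 and 6863 without treatment. LYZ was not above background often enough to be tested. Array 2, on which macrophage markers were mostly lower with OXA, was also the array with the lowest GAPDH ratio, whereas DDIT4 had its highest ratio there with all but its dimmest probe. Of 11 epithelial markers, 6 were tested and CLDN4 was too dim. On arrays 1 to 4, 2, 5, 0 and 5 of the 6 were higher with OXA, and their median log2 ratio was -1.17, 1.71, -0.88 and 1.70. The medians were thus negative where OXA is labelled in Cy5 and positive where it is labelled in Cy3. Only 2 of the 6 exceeded background in every channel of every array. EPCAM, CDH1 and MUC4 followed this alternation but were dim on array 1, with 13, 16 and 14 with OXA against 85, 36 and 47 without treatment. KRT8 was positive on array 1, SPP1 had 0.09, 0.38, -0.06 and 0.33, and LCN2 was negative on all 4 arrays. Under the wording of the labelling protocol the median of their means was -1.25 in place of 0.25. That of macrophage markers was 0.39 in place of 0.47. Which reading of the dyes holds was not tested. The summed signal of the epithelial markers, of which SPP1 was the brightest member, was 2777, 10593, 5491 and 5990 with OXA, against 3181, 4048, 6338 and 4330 without treatment. Of 10 endothelial markers, 5 were tested, and 0, 1, 3 and 5 of them were higher with OXA on arrays 1 to 4. Their summed signal ranged from 4412 to 11639 with OXA and from 5734 to 8615 without treatment. Of 9 fibroblast markers, 4 were tested, and 1, 0, 3 and 1 of them were higher with OXA. The fibroblast sums were 40685, 47375, 51108 and 49804 with OXA, against 45689, 51391, 51136 and 71680 without treatment. Of the 7 tested smooth muscle markers, 3, 1, 6 and 0 were higher with OXA on arrays 1 to 4. The part of these cell types in the ratios of the 6 genes was not tested.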

How the data were processed

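Explants of 4 gilts were measured on 4 dual-colour arrays of 1 slide. Per the file headers, the scanner files were written by Agilent Feature Extraction 10.7.3.1; they hold processed and median signal intensity, deposited on a linear scale, and a LogRatio, deposited as log10 of Cy5 over Cy3. The deposited value table holds log2 ratios with direction and scale undescribed in the labels. Against the scanner's ratio it had a slope of 1 (arrays 1, 3) or -1 (arrays 2, 4), with at least 99.87% of tested probes within 0.001, so it runs as OXA over non-treated with the dyes as labelled. Its column medians over all probes were 0.10, 0.10, -0.19 and 0.07, so its columns were not centred on the median.

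Control spots and outlier spots (25 to 36 per array) were left out, and 0 were saturated. Testing required a value on all 4 arrays and, in at least 1 of the channels (OXA, non-treated), a signal well above background on 3 or more; this held for 19437 of 43603 probes (44.6%). Names came from unversioned accessions in a RefSeq table of Sscrofa11.1, from which no coordinates were taken: 6700 probes had 1 gene, 0 had several and 36903 were unnamed here. A gene is represented by its brightest tested probe.

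limma 3.58.1 in R 4.3.3 was fitted to the value table with an OXA term and a dye term (2 residual degrees of freedom), two-sided, with Benjamini-Hochberg adjustment over all tested probes and a threshold of 0.05. The fit was tested on simulated data. Besides the 6 genes, the rule named from each list up to 3 genes with the largest absolute mean and 1 sign on all arrays, the brightest gene, and the 5 genes nearest to DDIT4 and to GAPDH. Other genes of the lists were named after their values were seen. Some items that the rule names are not reported here. The 6 genes and the lists were chosen with earlier results of these data known. Of 8 erythrocyte markers, 0 had a named probe, and 4 of 9 fibroblast markers were tested. Alternatives were normexp (offset 50) with loess, no background subtraction, centring, filters, no dye term, array weights, separate channels, both other dye readings and leaving out each array. The small number of arrays limits the precision.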

Additional observations from a re-analysis of the deposited data

How the results depend on the processing

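The fit called 0 probes for OXA and 0 for dye with normexp and loess, without background subtraction, with median centring, without a filter, with the stricter filter, with array weights, with separate channels and with array 2 turned, and for OXA also without the dye term and with Cy5 read as OXA throughout. At an unadjusted p under 0.05 it had 233 probes for OXA and 476 for dye. With array 2 turned the count for OXA was 5255, with a lowest adjusted p of 0.0681 from limma, against 0.998 as labelled. As labelled, array 2 correlated at -0.59, -0.30 and -0.38 with arrays 1, 3 and 4. Turning it therefore raises the agreement between arrays by itself, and nothing is read from that count. Leaving out 1 array, which keeps 1 residual degree of freedom and leaves an array alone in its orientation, gave 0 to 1108 calls for OXA and 12 to 1158 for dye. For OXA these were 0 without array 1, 1108 without array 2, 5 without array 3 and 2 without array 4, and for dye 52, 152, 12 and 1158. Each of these fits gave every probe the same variance, so the counts are not relied on. No replicate block was added, since each ratio is already formed within an array.

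The 6 genes kept the sign of their OXA estimate in 6 of 6 cases under normexp and loess, no background subtraction, centring, other probes, array 2 turned and each array left out. With OXA in Cy5 on all arrays 4 of 6 did by their brightest probes, DDIT4 and VEGFA excepted; by its dimmer probe GAPDH also turned, and by 2 of its other 3 probes DDIT4 did not. Over the 4 fits without 1 array, the estimate of DDIT4 ran from 0.78 to 1.09, VEGFA from 0.53 to 0.83, ALDOC from 0.47 to 0.77, LDHA from 0.22 to 0.45, GAPDH from 0.05 to 0.47 and HIF1A from -0.54 to -0.08. In these fits, and with array 2 turned, the array alone in its orientation weighs as much as the others together. A plain mean can therefore differ in size and sign. Without array 1 the brighter GAPDH probe had an estimate of 0.15, from ratios of -0.77, 0.65 and 0.07 on arrays 2 to 4. With array 2 turned, the median of all named genes was 0.25 in place of 0.08; the hypoxia list had 0.47 in place of 0.07, glycolysis 0.38 in place of 0.17, reference genes 0.35 in place of 0.10 and macrophage markers 0.86 in place of 0.47. These are medians of the fit's estimates. As labelled, the array 2 medians were -0.22 for named genes and for the hypoxia list. For glycolysis, reference genes and macrophage markers they were -0.18, -0.27 and -0.67. Turning array 2 reverses these signs, and array 4 gains weight in that fit. Epithelial markers, with a median of 1.71 on array 2, had 0.07 in place of 0.25. Why the lists differed on array 2 was not tested.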

Other observations

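Genes that lead pyruvate into the citric acid cycle were measured beside those of glycolysis. Of 15 listed, 9 were tested, and limma called 0. Citrate synthase (CS) was the 1 gene of the 9 with positive ratios on all 4 arrays, at 0.06, 0.18, 0.01 and 0.08. PDK4, which inhibits pyruvate dehydrogenase, had 1.09, 0.63, -1.04 and 0.09, and PDK1, the hypoxia-induced member of that family, 0.34, -0.37, 0.27 and 0.74. DLD, a subunit that several dehydrogenase complexes share, varied most, with -1.46, 0.77, 0.16 and -1.67, and its 9 probes averaged -0.70 to 0.11. PDK4, PDK1 and DLD were named after their values were seen.

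In 68 sets of 4 array values, those of the 12 probes, the named genes and the gene lists, 0 had an array that stood apart by Dixon's ratio, where chance gives about 5%. With 4 values only an extreme array can stand apart, and the sets share arrays and are not independent. The count therefore does not say that the arrays agree.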
